A study of Mus musculus with 2 samples.

Results

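The 10 genes described here, of 28692 genes counted in each library, belong to the molecular circadian clock and its transcriptional output. They are Nr1d1, Nr1d2, Dbp, Tef, Hlf, Per1, Per2, Per3, Arntl and Nfil3. They were chosen by their CPM in the KO library relative to the control, because several of them were lower across cell classes, so the difference between the libraries is given below as a description and no test was made of it. The cells came from the stromal vascular fraction (SVF) of gonadal white adipose tissue (gWAT), the pelleted stromal, vascular and immune cells that remain after collagenase digestion. There was 1 library from littermate control mice, called wild-type in the labels and Pgam1 flox/flox without Cre in the study's methods, and 1 library from Adipo-Pgam1 KO mice, which carry Adipoq-Cre and floxed Pgam1. The animals were male C57BL/6 mice and 13 weeks old by the labels. The adiponectin promoter drives Cre in adipocytes, and the study also took a fibroblast population of this fraction, rich in adipocyte markers, for preadipocytes in which Pgam1 was deleted. Neither the number of mice behind a library nor the hour at which tissue was taken is given in the sources used here, so genotype, library and time of collection cannot be told apart.

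The clock is a feedback loop of transcription that runs in nearly every cell type and is set by light, feeding and hormones such as glucocorticoids. Arntl (also called Bmal1) and Clock form the activator, which binds E-box motifs and switches on the Per and Cry genes, whose proteins then repress it. The same activator switches on the nuclear receptors Nr1d1 and Nr1d2 (REV-ERBα and REV-ERBβ), which repress Arntl through RORE motifs, and the PAR bZIP factors Dbp, Tef and Hlf, which act on D-box motifs together with their repressor Nfil3. Levels of these RNAs therefore rise and fall with the time of day, and Nr1d1 and Dbp are among the RNAs with the widest daily swing in adipose tissue. Per1 and Per2 also respond quickly to glucocorticoids and other acute stimuli.

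The promoters of 5 members are printed because they belong to members that were lower (Nr1d1, Nr1d2, Per3) and members that were higher (Per1, Nfil3) in the KO library and because they hold the motifs named above. They are RefSeq windows of 300 bases on GRCm38.p6, from 250 bases before to 50 bases after an annotated start, written 5′ to 3′ on the gene's strand, with motif matches in capitals.
Nr1d1 promoter, chr11:98775328-98775627, minus strand: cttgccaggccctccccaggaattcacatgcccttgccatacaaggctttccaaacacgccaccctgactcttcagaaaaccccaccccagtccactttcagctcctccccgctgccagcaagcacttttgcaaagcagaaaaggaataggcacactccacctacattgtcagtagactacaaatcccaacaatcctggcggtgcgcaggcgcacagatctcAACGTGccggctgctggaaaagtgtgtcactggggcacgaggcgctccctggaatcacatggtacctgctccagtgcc
Nr1d2 promoter, chr14:18239057-18239356, minus strand: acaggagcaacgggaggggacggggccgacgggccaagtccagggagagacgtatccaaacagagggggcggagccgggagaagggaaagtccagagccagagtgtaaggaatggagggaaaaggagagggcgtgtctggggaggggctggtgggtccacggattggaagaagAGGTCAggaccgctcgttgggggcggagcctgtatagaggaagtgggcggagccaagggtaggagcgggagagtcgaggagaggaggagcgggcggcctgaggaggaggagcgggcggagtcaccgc
Per3 promoter, chr4:151044616-151044915, minus strand: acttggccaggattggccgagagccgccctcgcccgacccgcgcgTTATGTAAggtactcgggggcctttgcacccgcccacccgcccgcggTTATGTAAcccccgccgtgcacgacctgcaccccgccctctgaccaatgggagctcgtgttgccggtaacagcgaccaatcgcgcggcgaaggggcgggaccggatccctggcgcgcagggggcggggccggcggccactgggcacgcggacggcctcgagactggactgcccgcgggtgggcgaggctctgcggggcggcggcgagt
Per1 promoter, chr11:69098699-69098998, plus strand: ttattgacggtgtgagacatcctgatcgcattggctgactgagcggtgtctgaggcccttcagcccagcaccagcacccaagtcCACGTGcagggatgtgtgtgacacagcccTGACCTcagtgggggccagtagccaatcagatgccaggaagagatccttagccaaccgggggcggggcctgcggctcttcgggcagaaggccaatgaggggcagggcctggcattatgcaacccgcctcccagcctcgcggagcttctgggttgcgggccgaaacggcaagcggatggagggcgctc
Nfil3 promoter, chr13:52980990-52981289, minus strand: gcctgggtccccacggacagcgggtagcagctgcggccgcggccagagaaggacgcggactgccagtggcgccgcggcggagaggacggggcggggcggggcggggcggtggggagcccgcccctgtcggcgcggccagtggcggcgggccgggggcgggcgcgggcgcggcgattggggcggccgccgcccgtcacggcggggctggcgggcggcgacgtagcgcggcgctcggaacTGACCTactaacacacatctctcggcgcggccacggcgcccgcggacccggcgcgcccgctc

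Both strands were searched for the E-box CACGTG, the E′-box CACGTT, which reads AACGTG on the opposite strand, the D-box TTATGTAA, which reads TTACATAA, its variant TTACGTAA, the RORE core AGGTCA, which reads TGACCT, and the cyclic AMP response element TGACGTCA, and no matches overlapped in the members' windows. Windows were available for 9 of the 10 members, with 2 each for Tef, Per1 and Arntl. A member counted as holding a motif if any of its windows did, whereas the shares below are of single promoters. The Per1 window not printed and the other Arntl window held none of the motifs. An E-box was found in the windows of Tef and Per1, against 7.15% of all 32851 promoters. Nr1d1 held the E′-box, which 4.68% of all promoters held. Per3 held the D-box TTATGTAA at 2 places, and 0.938% of all promoters held it. The RORE core, present in 16.3% of all promoters, was found for Nr1d2, Per1, Arntl and Nfil3. TGACGTCA was found for Hlf alone among the members (1.79% of all promoters), TTACGTAA for none of them (0.119%), and the Dbp window held none of the motifs. A match says only that the letters are there.

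The genes lie on GRCm38 at chr11:98767932-98775333 (Nr1d1), chr14:18204054-18239127 (Nr1d2), chr7:45705088-45710203 (Dbp), chr15:81802421-81826863 (Tef), chr11:90336536-90390895 (Hlf), chr11:69095217-69109960 (Per1), chr1:91415982-91459324 (Per2), chr4:151003652-151044665 (Per3), chr7:113207465-113314126 (Arntl) and chr13:52967209-52981073 (Nfil3). In the GENCODE annotation, Nr1d1 overlaps the opposite-strand gene Thra over 1075 bases and Dbp overlaps Sphk2 over 737 bases. Per3 lies wholly within Camta1 on the same strand. How the authors' counting treated reads in such overlaps is not given in the sources used here.

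The deposited counts are unique molecular identifiers (UMIs), each standing for a captured transcript 3′ end. The control library held 8522 barcodes with 42859406 UMIs and the KO library 2730 barcodes with 13821581 UMIs. After filters (at least 500 detected genes, at most 10% mitochondrial UMIs) and removal of 265 and 21 likely doublets, 3616 control and 937 KO cells were kept, with a median of 6898 and 7494 UMIs. The libraries shared 9 barcodes and none among kept cells. Of 25 clusters, 17 were named from marker genes, and 10 classes had at least 20 cells in each library and were compared. All markers of each compared class were higher in it than in the other cells, and none was at 0. Clusters without a name took in 18.1% of the control cells and 26.5% of the KO cells. Pgam1, the targeted gene, was at 110 CPM (a gene's UMIs scaled by all UMIs) in the control and 116 CPM in the KO cells, and Adipoq was at 0.756 and 0.841 CPM, so these cells give no check of a deletion in adipocytes.

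Among the 10 compared classes of the control library, most members were highest in pericyte and smooth muscle-like cells and lowest in several immune classes, and the repressor Nfil3 and the activator Arntl were distributed otherwise. Levels are UMIs of a gene summed over a class and divided by all its UMIs, in CPM, with exact 95% Poisson intervals that cover counting error only. Nr1d1 was at 359 CPM (330 to 390) in pericyte and smooth muscle-like cells and at 205 CPM (174 to 239) in endothelial-like cells. Mesothelial-like cells with 154 CPM and fibroblast-like cells with 145 CPM followed and did not differ beyond counting error, and nor did macrophage-like (36.7 CPM) and T cell-like cells (33.6 CPM). The remaining classes, monocyte-like, B cell-like, dendritic cell-like and NK cell-like, lay between 2.93 and 5.32 CPM and their order cannot be told.

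**Figure D1:**
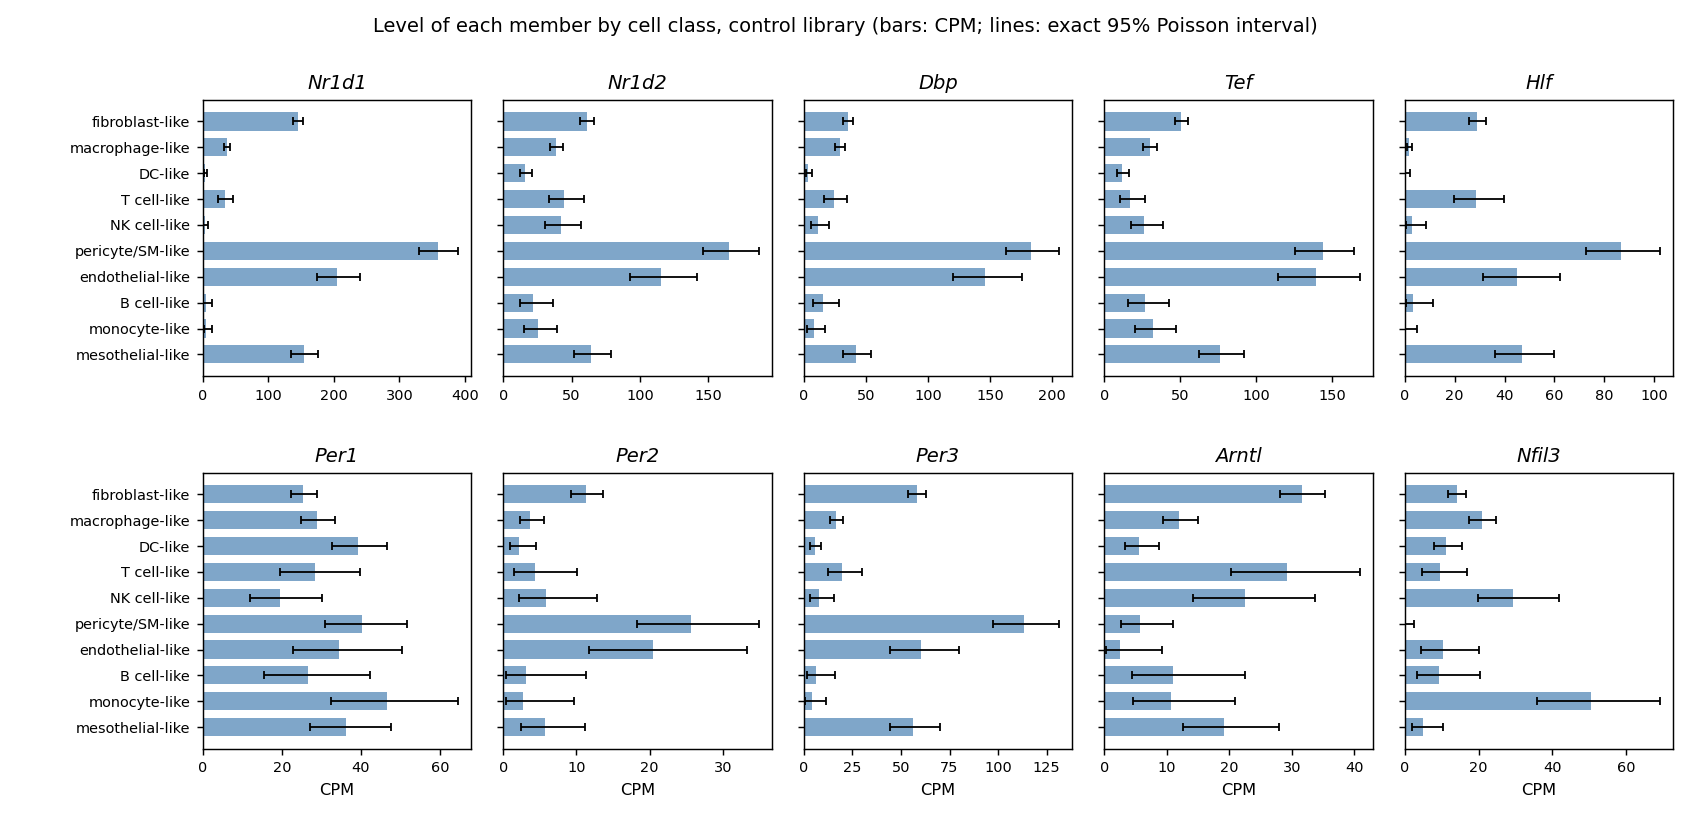
Level of each of the 10 members in the 10 compared cell classes of the control library. Bars give CPM on a linear axis that starts at 0 and differs between panels, and lines give the exact 95% Poisson interval. Pericyte and smooth muscle-like cells had the highest level of Nr1d1, Nr1d2, Dbp, Tef, Hlf, Per2 and Per3, whereas Nfil3 was highest in monocyte-like cells and Arntl in fibroblast-like cells.

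Among the other members of the control library, Nr1d2 fell into nearly the same order of classes, from 165 CPM in pericyte and smooth muscle-like cells and 115 CPM in endothelial-like cells to 16.1 CPM in dendritic cell-like cells. Dbp was at 183 and 146 CPM in the same vascular classes, and from mesothelial-like cells (42.0 CPM) down to dendritic cell-like cells (3.71 CPM) elsewhere. Tef did not differ beyond counting error between pericyte and smooth muscle-like (144 CPM) and endothelial-like cells (140 CPM). Among the compared classes, Hlf was found mainly in stromal, vascular and T cell-like cells, with 86.6 CPM in pericyte and smooth muscle-like cells, 28.4 CPM in T cell-like cells and at most 3.12 CPM in the other lymphoid and myeloid classes. Per3 was at 113 CPM in pericyte and smooth muscle-like cells, the highest of the compared classes, and Per2 at 25.6 CPM there and 20.5 CPM in endothelial-like cells did not differ beyond counting error.

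Per1 lay between 19.5 CPM (11.9 to 30.2) in NK cell-like and 46.5 CPM (32.4 to 64.7) in monocyte-like cells, although no pair of neighbours in its order of classes differed beyond counting error. Arntl was highest in fibroblast-like (31.6 CPM) and T cell-like cells (29.3 CPM). The lowest value was in endothelial-like cells (2.56 CPM, 2 UMIs), which did not differ beyond counting error from dendritic cell-like cells (5.57 CPM). Its repressor Nr1d1 was at 205 CPM in endothelial-like, 145 CPM in fibroblast-like and 3.40 CPM in dendritic cell-like cells. Nfil3, the repressor of D-box genes, was at 50.5 CPM in monocyte-like and 29.3 CPM in NK cell-like cells. Pericyte and smooth muscle-like cells, with the highest Dbp level, held 0 Nfil3 UMIs, for which the limit of 3 counts is 1.92 CPM.

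Over all kept cells, 4 of the 10 members were lower by 2-fold or more in the KO library, as 3.13% of all measured genes were, and 1 was at least 2-fold higher, as 3.9% were. A gene counts as measured with at least 20 UMIs over both libraries, and counts under 3 were set to 3 before the 2-fold limit was applied. Nr1d1 was at 92.8 CPM (2823 UMIs) in the control and 17.6 CPM (167 UMIs) in the KO library. Dbp was at 41.3 and 13.0 CPM, Nr1d2 at 56.7 and 24.3 CPM, and Per3 at 43.7 and 20.7 CPM. Tef (49.8 and 29.98 CPM) and Hlf (30.8 and 21.0 CPM) were lower by less than 2-fold. Nfil3, with 14.3 CPM in the control and 31.5 CPM in the KO library, went the other way, as did Per1 with 31.8 and 58.1 CPM. Arntl (18.6 and 23.3 CPM) and Per2 (9.04 and 7.15 CPM) differed least.

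**Figure D2:**
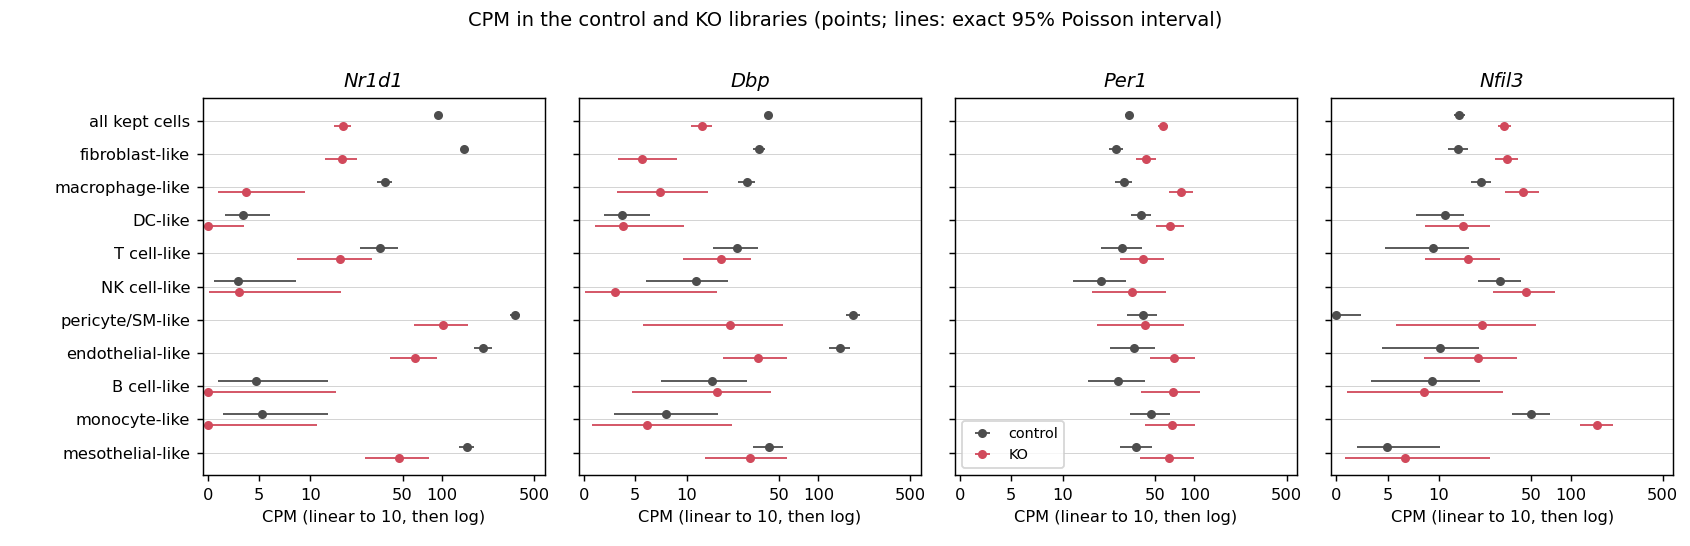
CPM of Nr1d1, Dbp, Per1 and Nfil3 in the control and KO libraries, over all kept cells and by cell class. The axis is linear up to 10 CPM and logarithmic above, and lines give the exact 95% Poisson interval. In fibroblast-like cells Nr1d1 was at 145 CPM in the control and 17.3 CPM in the KO library, whereas Per1 was higher in the KO library in all 10 classes.

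As log2 ratios of KO to control CPM, with exact conditional binomial 95% intervals for counting error, Nr1d1 was at -2.40 (-2.63 to -2.18), Dbp at -1.66 (-1.94 to -1.40), Nr1d2 at -1.22 (-1.43 to -1.02) and Per3 at -1.08 (-1.30 to -0.86). These intervals lay below 0, as did those of Tef at -0.73 and Hlf at -0.55. Nfil3 was at 1.13 (0.92 to 1.35), Per1 at 0.87 (0.72 to 1.02) and Arntl at 0.33 (0.10 to 0.56), all with the interval above 0, and the interval of Per2 (-0.74 to 0.05) held 0. The median of all 14974 measured genes was -0.07. With 1 library per genotype these intervals leave out the difference between mice, and no p-value is given.

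Within the 10 classes, 68 member values were measured, of which 28 lay past 2-fold on the lower side and 7 on the higher side. Since this contrast chose the members, these counts and the shares of all measured genes beside them are a description. Control UMIs alone can make a gene count as measured in a class, so a direction shared by all measured classes is likewise no support. In fibroblast-like cells 4 of 10 measured members were at least 2-fold lower and 1 was higher, against 3.43% and 1.94% of all measured genes. For macrophage-like cells the numbers were 5 and 2 of 9 members, against 5.48% and 2.56%. Pericyte and smooth muscle-like cells, with 21 KO cells, had 6 of 8 members lower and none higher, against 7.4% and 4.62%. With each cell thinned to 2000 UMIs, 13 KO cells were left and only Nr1d1 of these 6 remained past 2-fold. The others then held 0 or 1 KO UMIs, which were set to 3, as for Dbp (75 control and 0 KO UMIs) and Tef (73 and 1). At such counts thinning cannot show whether their differences shrank. Endothelial-like cells had 5 of 7 lower and 1 higher, against 7.29% and 2.46%, and mesothelial-like cells, with 20 KO cells, had 2 of 8 lower and 1 higher, against 5.28% and 3.17%. T cell-like cells had 2 of 9 lower and none higher, against 6.08% and 1.69%.

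In the remaining immune classes few members reached 20 UMIs. Dendritic cell-like cells had 1 of 6 lower and none higher (6% and 1.82% of all measured genes), NK cell-like cells 1 of 5 lower and none higher (6.35% and 2.73%), monocyte-like cells 2 of 4 lower and 1 higher (9.13% and 4.67%), and B cell-like cells none of 2 lower and 1 higher (7.65% and 4.17%).  In T cell-like and endothelial-like cells, edgeR's TMM scaling moved all log2 ratios by 0.11 and 0.10, and the share of higher genes among those past 2-fold went from 21.8% to 33.2% and from 25.2% to 36.4%. Of the members' calls in these classes, that of Nr1d2 in endothelial-like cells was lost by it.

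**Figure D3:**
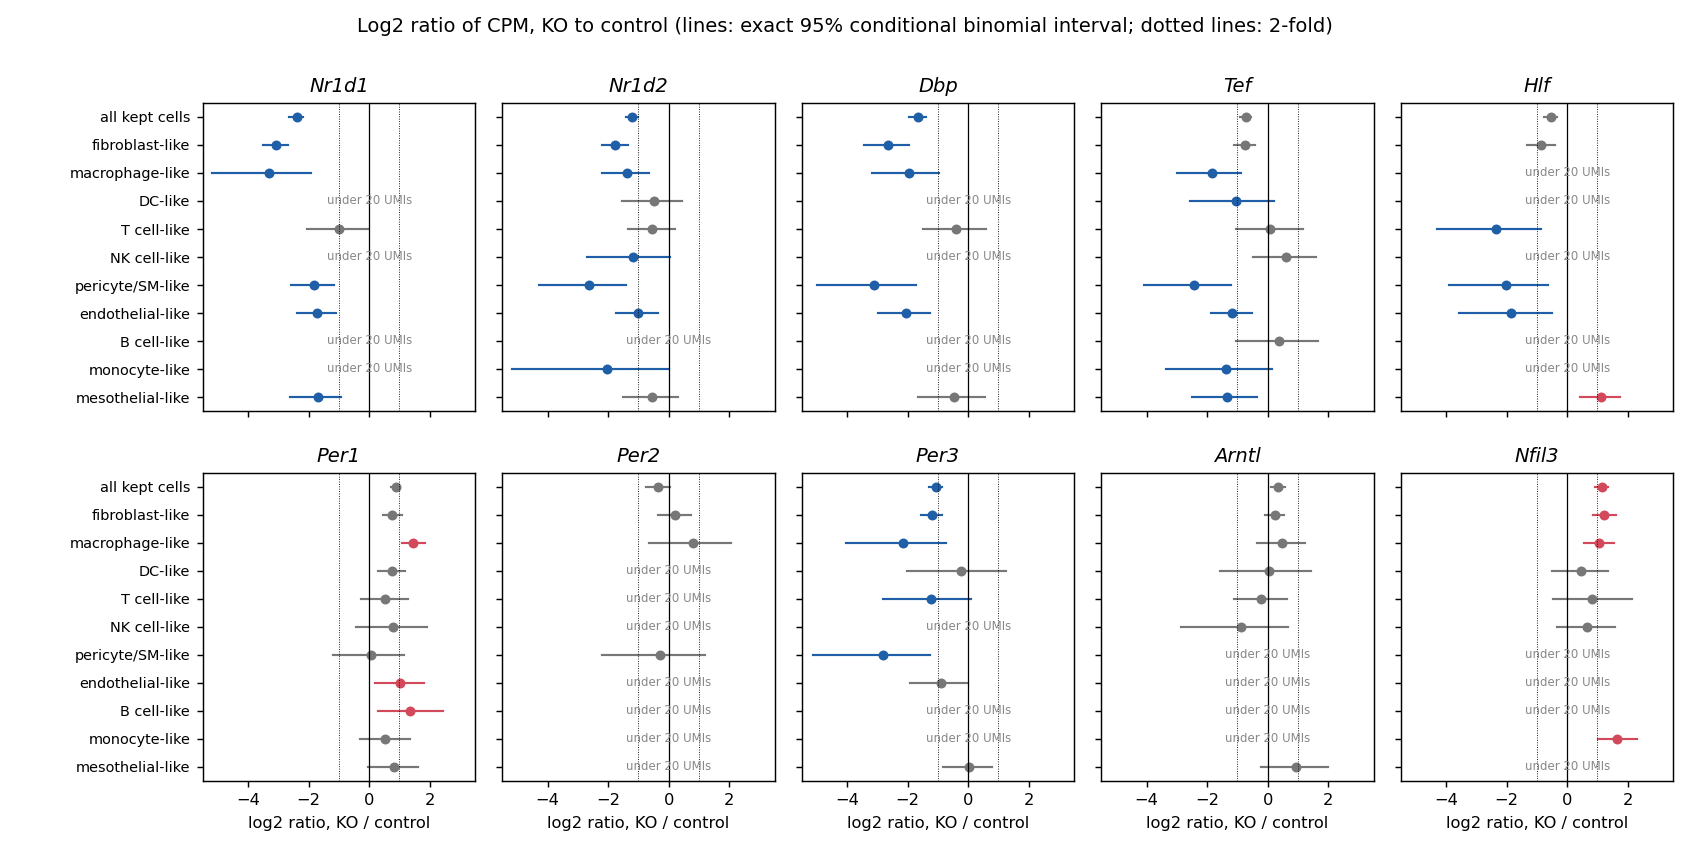
Log2 ratio of CPM, KO to control, for each member over all kept cells and in each compared class, with the exact 95% conditional binomial interval. Blue marks ratios past 2-fold on the lower side and red on the higher side, by the rule that sets counts under 3 to 3. Nr1d1, Nr1d2 and Dbp lay below 0 and Per1 and Nfil3 above 0 in every class in which they had at least 20 UMIs. These UMIs are summed over both libraries, and control UMIs alone can reach that number.

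Nr1d1 and Nr1d2, the REV-ERB repressors, were lower in the KO library in every class in which they counted as measured. Control UMIs alone can make a gene count as measured, and this contrast chose the members. The shared direction is therefore a description and no support. Nr1d1 was lower in 6 of 6 measured classes, each with an interval below 0, and 5 of them were past 2-fold. In fibroblast-like cells it was at 145 CPM (1403 UMIs in 784 cells) in the control and 17.3 CPM (52 UMIs in 181 cells) in the KO library, a log2 ratio of -3.07 (-3.50 to -2.67). Of the 11822 genes measured in these cells it had the 3rd lowest ratio. In macrophage-like cells it was at 36.7 CPM (228 UMIs) and 3.70 CPM (4 UMIs), a log2 ratio of -3.31 (-5.20 to -1.93), the 2nd lowest of 10388 measured genes.

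The Nr1d1 difference was smaller in the vascular and mesothelial classes, which had the highest or a high level in the control. Pericyte and smooth muscle-like cells were at 359 CPM in the control and 101 CPM in the KO library, endothelial-like cells at 205 and 62.0 CPM, and mesothelial-like cells at 154 and 47.1 CPM. Their log2 ratios were -1.83 (-2.57 to -1.17), -1.72 (-2.39 to -1.11) and -1.71 (-2.60 to -0.93). T cell-like cells, with 33.6 and 16.8 CPM, lay at -0.999 (-2.07 to -0.04), just inside the 2-fold limit. The 19 KO UMIs of the pericyte and smooth muscle-like class came from 8 of 21 cells, and with each cell weighted equally the ratio was -0.93.

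Nr1d2 lay below 0 in all 9 classes in which it was measured, 6 of them past 2-fold and 4 with an interval below 0. The largest difference was in pericyte and smooth muscle-like cells, with 165 CPM (258 UMIs) in the control and 26.6 CPM (5 UMIs) in the KO library. Fibroblast-like cells were at 61.0 and 18.0 CPM (log2 ratio -1.76, -2.19 to -1.36) and macrophage-like cells at 38.6 and 14.8 CPM (-1.38, -2.21 to -0.65). Endothelial-like cells, at 115 and 57.1 CPM, lay at the 2-fold limit. The call in monocyte-like cells rested on 19 control and 2 KO UMIs, with a log2 ratio of -2.05 and an interval that reached 0.00.

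Dbp, Tef and Hlf are the activators that work through the D-box. Dbp was lower in all 6 measured classes, in 4 of them past 2-fold. It was at 35.4 CPM (342 UMIs) in control and 5.65 CPM (17 UMIs) in KO fibroblast-like cells, a log2 ratio of -2.65 (-3.44 to -1.95), and at 183 CPM (286 UMIs) and 21.3 CPM (4 UMIs) in pericyte and smooth muscle-like cells, a ratio of -3.11 (-4.995 to -1.74). In endothelial-like cells the levels were 146 and 34.7 CPM and in macrophage-like cells 28.8 and 7.40 CPM. T cell-like cells (24.1 and 18.2 CPM) and mesothelial-like cells (42.0 and 30.3 CPM) differed by less than 2-fold, with intervals that held 0.

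Tef, measured in all 10 classes, was past 2-fold lower in 6 and lay slightly above 0 in T cell-like, NK cell-like and B cell-like cells, where the intervals held 0. Its fibroblast-like levels, 50.7 and 29.9 CPM, differed by less than 2-fold (log2 ratio -0.76, -1.10 to -0.43). The ratios in macrophage-like (29.9 and 8.33 CPM), pericyte and smooth muscle-like (144 and 26.6 CPM) and mesothelial-like cells (76.2 and 30.3 CPM) were -1.85, -2.44 and -1.33. In dendritic cell-like cells the call, at -1.04, was lost under 6 of 11 alternatives, among them no doublet removal.

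Hlf differed in direction between classes, with intervals on opposite sides of 0. It was lower in fibroblast-like (29.0 and 15.96 CPM), T cell-like (28.4 and 5.60 CPM), pericyte and smooth muscle-like (86.6 and 21.3 CPM) and endothelial-like cells (44.8 and 12.4 CPM). In mesothelial-like cells it was higher, with 47.0 CPM (66 UMIs in 34 of 106 cells) in the control and 101 CPM (30 UMIs in 10 of 20 cells) in the KO library, a log2 ratio of 1.104 (0.43 to 1.75). No other member had an interval above 0 in one class and below 0 in another. With control cells clustered alone, the T cell-like ratio of Hlf went from -2.34 to -0.35, which ends that call. In Hlf's remaining classes it had under 20 UMIs over both libraries.

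Nfil3, which opposes Dbp, Tef and Hlf on the D-box, was higher in the KO library in all 6 classes in which it was measured. Monocyte-like cells were at 50.5 CPM (38 UMIs) in the control and 159 CPM (52 UMIs) in the KO library, a log2 ratio of 1.65 (1.02 to 2.30). Fibroblast-like cells were at 14.1 and 32.9 CPM (1.23, 0.84 to 1.61) and macrophage-like cells at 20.9 and 43.5 CPM (1.06, 0.54 to 1.55). These 3 classes were past 2-fold, whereas the intervals of dendritic cell-like, T cell-like and NK cell-like cells held 0. Fibroblast-like cells thus showed lower Dbp beside higher Nfil3. Weighted by the control's shares of the clusters, the ratio in macrophage-like cells was 0.74.

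The 3 Period genes, whose proteins repress Arntl and Clock, did not move together. Per3 was lower past 2-fold in 4 of 7 measured classes, with 58.1 CPM (561 UMIs) in control and 25.3 CPM (76 UMIs) in KO fibroblast-like cells, a log2 ratio of -1.20 (-1.57 to -0.85). In macrophage-like cells it was at 16.4 CPM (102 UMIs) and 3.70 CPM (4 UMIs), and in pericyte and smooth muscle-like cells at 113 CPM (177 UMIs) and 15.9 CPM (3 UMIs), where the log2 ratio was -2.83 (-5.12 to -1.26). Mesothelial-like cells did not share this, with 56.3 CPM in the control and 57.2 CPM in the KO library. In fibroblast-like cells the Per3 ratio was -0.93 with each cell weighted equally, which ends that call.

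Per1 lay above 0 in all 10 classes, with an interval above 0 in 5 of them and a ratio past 2-fold in 3. It was at 29.0 CPM (180 UMIs) in control and 79.6 CPM (86 UMIs) in KO macrophage-like cells, a log2 ratio of 1.46 (1.07 to 1.84). B cell-like cells were at 26.5 and 68.3 CPM and endothelial-like cells at 34.6 and 69.5 CPM. The endothelial-like call was lost under 2 of 11 alternatives, with 0.34 as the lowest log2 ratio, and the B cell-like call under the looser cell filter (0.93). In fibroblast-like cells, at 25.5 and 43.2 CPM, the ratio was 0.76 (0.45 to 1.08). Pericyte and smooth muscle-like cells differed least, with 40.4 and 42.5 CPM. Per2 was measured in 3 classes alone and its intervals held 0 in each, with 11.3 CPM in control and 13.0 CPM in KO fibroblast-like cells.

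Arntl, the activator and the target of REV-ERB repression, was past 2-fold in none of the 6 classes in which it was measured, and all its intervals by class held 0. In fibroblast-like cells it was at 31.6 CPM (305 UMIs) in the control and 36.9 CPM (111 UMIs) in the KO library, a log2 ratio of 0.23 (-0.10 to 0.54). It stayed under 20 UMIs over both libraries in 4 classes, among them endothelial-like cells with 2 control and 10 KO UMIs and pericyte and smooth muscle-like cells with 9 and 2. In the same fibroblast-like cells the level of Nr1d1 was 8.40-fold lower.

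**Figure D4:**
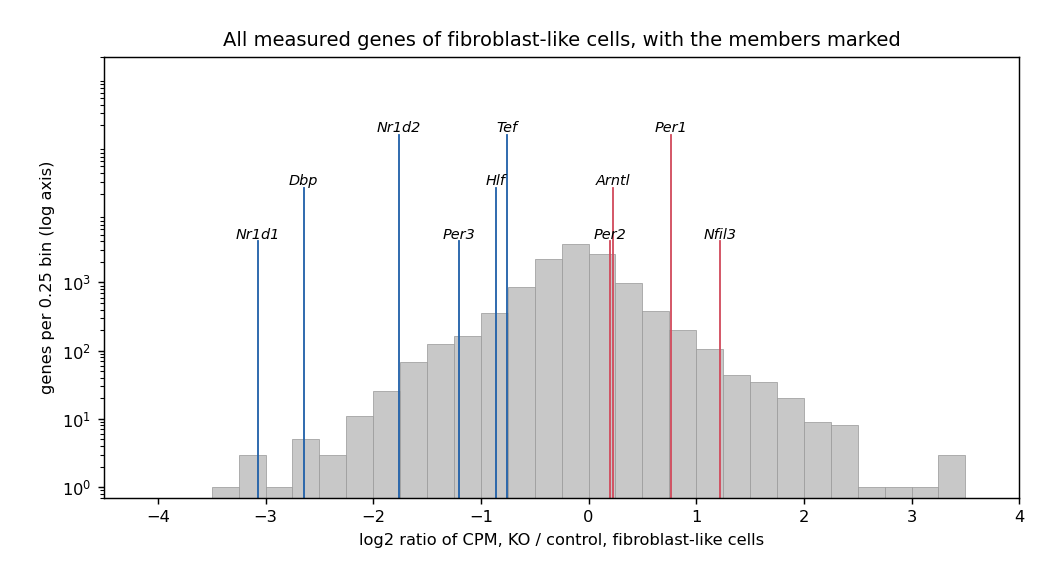
Histogram of the log2 ratio of CPM, KO to control, for the 11822 genes measured in fibroblast-like cells, in bins of 0.25 on a logarithmic count axis, with lines at the 10 members. Nr1d1 at -3.07 and Dbp at -2.65 lie in the thin lower tail, Tef, Hlf, Per2, Arntl and Per1 within 2-fold of 0, and Nfil3 at 1.23 beyond it.

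The same difference appeared in the number of cells with a UMI. Nr1d1 was found in 542 of 784 control fibroblast-like cells (69.1%) and in 30 of 181 KO cells (16.6%), although the KO cells were deeper, with a median of 17882 against 12309 UMIs. With each cell thinned to 2000 UMIs and shallower cells left out (11 control and 2 KO cells), the shares were 26.3% (23.2 to 29.5, exact binomial interval) and 3.35% (1.24 to 7.15). In dendritic cell-like cells, a class of like depth (medians of 12439 and 17190 UMIs) with little Nr1d1, 3.83% of control and 0% of KO cells held a UMI. That 0 of 65 was 0 of 63 after thinning, with an upper bound of 5.69%. Before thinning, the KO share in fibroblast-like cells was thus above that in dendritic cell-like cells, and after it the intervals of both overlapped.

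The thinned shares of Dbp in fibroblast-like cells were 7.89% (6.09 to 10.0) in the control and 0.559% (0.0141 to 3.07) in the KO library. Nr1d2 was found in 13.1% and 6.70% of thinned cells and Per3 in 10.7% and 5.03%, with intervals that overlapped for both genes. Per1 went from 5.43% (3.94 to 7.27) to 8.94% (5.20 to 14.1), and Nfil3 from 2.33% to 5.03%, again with overlapping intervals. All these intervals cover the sampling of cells within a library and not differences between mice, and their overlap is no test. The UMIs were not those of a few cells in the control, where the 10 cells richest in Nr1d1 held 6.56% of the fibroblast-like UMIs. In the KO library the corresponding 10 cells held 53.8% of 52 UMIs.

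The fibroblast-like clusters had the same direction as the class. Fibroblast-like cells comprised a cluster led by Inmt, Bmper and Agt and a cluster led by Cilp, Pi16 and Fndc1, with shares of 64.0% and 35.97% of the control and 64.6% and 35.4% of the KO cells. Nr1d1 was at 139 CPM in the control and 20.9 CPM in the KO library in the first and at 156 and 10.5 CPM in the second, and Dbp at 30.6 and 7.14 CPM and at 43.5 and 2.87 CPM. Tef and Hlf were past 2-fold lower in the Cilp, Pi16 and Fndc1 cluster alone, with ratios of -1.23 and -1.81 against -0.55 and -0.57 in the other, and the difference between the clusters was not tested. Over the 19 clusters with at least 20 cells in each library, Nr1d1 lay below 0 in 10 of 10 where it was measured, Nr1d2 in 15 of 15, Dbp in 10 of 10, and Per1 above 0 in 17 of 17. These clusters divide the cells of the contrast that chose the members, and control UMIs alone can make a gene count as measured. The counts of clusters are therefore a description and no support.

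The macrophage-like class had a different make-up in the libraries. The cluster led by Folr2, Cbr2 and Pf4 made up 54.8% of the class in the control library and 32.98% in the KO library, and the cluster led by Lyz1, Mmp12 and Ear2 the rest. In the control, Nr1d1 was at 82.7 CPM in the Folr2 cluster and 6.89 CPM in the Lyz1 cluster. Within the Folr2 cluster it was at 6.82 CPM (2 UMIs, against 202) in the KO library, a log2 ratio of -3.60 (-6.66 to -1.73), and within the Lyz1 cluster at 2.54 CPM (2 UMIs, against 26), with an interval that held 0. Per1 was higher in both, at 23.8 and 119 CPM in the Folr2 cluster and 32.3 and 64.8 CPM in the Lyz1 cluster. Nfil3 was measured in the Lyz1 cluster only, at 31.0 and 58.4 CPM, and held 13 control UMIs and 1 KO UMI in the Folr2 cluster.

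Clusters without a class name did not all follow the same pattern. In the cluster led by Tpsb2, Mcpt4 and Cma1, genes of mast cell proteases, Nr1d1 was at 69.2 and 19.8 CPM, Dbp at 60.4 and 14.8 CPM and Hlf at 171 and 74.1 CPM. The leading genes of this cluster also included Il1rl1, Gata3, Il2ra and Klrg1. Its mean marker z-score was 4.35 for mast cells and 2.82 for innate lymphoid cells (ILC2), the next class. Only 1 mast cell marker was found in enough of its cells, so these levels cannot be assigned to mast cells. In the cluster led by Ptn, Tenm2 and Ptch1, which had the highest Per3 level of the 19 clusters (234 CPM in the control and 115 CPM in the KO library), Nr1d1, Nr1d2, Dbp, Tef and Hlf all differed by less than 2-fold, with intervals that held 0. Its Hlf levels were 215 and 201 CPM.

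RNA outside kept cells was also measured. The 2938 control and 1338 KO barcodes with fewer than 500 genes held 4389038 and 2599277 UMIs, in which Nr1d1 was at 19.4 and 5.39 CPM, Dbp at 15.5 and 3.85 CPM and Nr1d2 at 20.7 and 5.00 CPM. Per1 was at 6.15 and 8.08 CPM there, with an interval that held 0, and Arntl at 5.92 and 1.15 CPM. Over all deposited barcodes, with no filter, the log2 ratios of Nr1d1, Dbp and Per3 were -2.37, -1.82 and -1.10. The 8 fibroblast markers had a summed level in macrophage-like control cells of 0.838% of that in fibroblast-like cells, whereas Nr1d1 there was at 25.3% of its fibroblast-like level. In T cell-like control cells these shares were 1.24% and 23.1%. They lay closer together in NK cell-like (1.43% and 2.02%), B cell-like (1.22% and 3.22%), monocyte-like (1.34% and 3.66%) and dendritic cell-like cells (0.629% and 2.34%). The part of RNA from other cells in these levels was not tested.

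Other core clock genes were measured as a list. The 11 listed genes included Clock, Npas2, Arntl2, the Cry repressors, Ciart, Bhlhe40 and Bhlhe41. Over all kept cells none of them was lower by 2-fold or more. On the other side 1 was at least 2-fold higher, with a log2 ratio of 1.11, as 3.9% of all measured genes were. Their median log2 ratio was -0.17. Clock, the partner of Arntl, was at 66.0 and 62.0 CPM, a ratio of -0.09 with an interval that held 0. The Cry repressors went apart, with Cry1 at 11.3 and 17.2 CPM and Cry2 at 29.97 and 19.0 CPM. Of the E-box repressors, Bhlhe40 was at 87.3 and 115 CPM and Bhlhe41 at 17.9 and 11.7 CPM.

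By class, 7 of 53 measured values of these genes were past 2-fold lower and 4 past 2-fold higher, where 3.43% to 9.13% of all measured genes, depending on the class, were lower and 1.69% to 4.67% higher. In fibroblast-like cells none of 9 was past it. Cry2 (66 and 4 UMIs) and Bhlhe41 (55 and 4 UMIs) were lower in macrophage-like cells, the latter with an interval that held 0. Bhlhe41 was also lower in B cell-like cells, at 93.6 and 34.1 CPM. Among 6 genes for the turnover of clock proteins (among them the casein kinase genes Csnk1d and Csnk1e and the ubiquitin ligase genes Btrc and Fbxw11), 1 of 46 values by class was past 2-fold, namely Btrc in T cell-like cells with 19 control and 2 KO UMIs.

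Known clock-controlled genes outside the loop were measured as a further list. None of 6 (Usp2, Wee1, Nampt, Cdkn1a, Por and Alas1) was past 2-fold over all kept cells, and 5 lay above 0. Of all measured genes only 3.13% were past 2-fold lower and 3.9% higher there, so a count of 0 does not set this list apart. By class, 6 of 42 values of the list were past 2-fold higher and 1 lower. Of all measured genes, 1.69% to 4.67% were higher and 3.43% to 9.13% lower, depending on the class. Cdkn1a, a cell cycle inhibitor gene that REV-ERB proteins repress and p53 activates, was at 64.7 CPM in the control and 116 CPM in the KO library. In endothelial-like cells it was at 53.8 CPM (42 UMIs) and 447 CPM (180 UMIs), a log2 ratio of 3.05 (2.56 to 3.57). Nampt, an enzyme of NAD synthesis, was lower in endothelial-like cells (75.6 and 34.7 CPM) and higher in monocyte-like (53.2 and 150 CPM) and mesothelial-like cells (20.6 and 53.9 CPM).

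Lists of acute response genes mostly had medians above 0, and their part in the members' difference was not tested. Of 8 immediate early genes, all lay above 0 over all kept cells, with a median log2 ratio of 0.49. In fibroblast-like cells 4 of them were past 2-fold higher, as 1.94% of all measured genes were. Fos was at 577 CPM in the control and 1302 CPM in the KO library there, and Atf3 at 10.1 and 41.6 CPM. The list's median lay above 0 in 7 of 10 classes, and below it in dendritic cell-like, NK cell-like and monocyte-like cells. By class, 14 of 77 values of the list were past 2-fold higher and 6 lower. Of all measured genes, 1.69% to 4.67% were higher and 3.43% to 9.13% lower, depending on the class. Glucocorticoid response genes had a median of 0.40 over all kept cells, where Zbtb16 alone of 7 was past 2-fold, and above 0 in 8 of 10 classes. Fkbp5, a classical glucocorticoid target, was past 2-fold higher in macrophage-like (17.1 and 114 CPM), monocyte-like (7.97 and 76.4 CPM), endothelial-like (20.5 and 84.4 CPM) and dendritic cell-like cells (15.5 and 41.8 CPM), and lower in pericyte and smooth muscle-like cells (60.9 and 15.9 CPM, 3 KO UMIs). In fibroblast-like cells it was at 110 and 97.4 CPM.

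Zbtb16, another glucocorticoid-induced gene, was at 57.7 and 130 CPM in fibroblast-like cells. Heat shock genes had a median above 0 in all 10 classes, from 0.21 in fibroblast-like to 1.73 in monocyte-like cells, and Hspa1a was at 17.1 and 128 CPM in macrophage-like cells. The 5 erythroid markers had a lower summed level in 9 of 10 classes of the KO library and were higher in T cell-like cells, where they were at 1437 and 5844 CPM. Fibroblast markers were lower in all 9 other classes, from 273 to 21771 CPM in the control and from 113 to 18859 CPM in the KO library, and macrophage markers in 8 of 9. In fibroblast-like cells themselves the fibroblast marker sum was 43381 CPM in the control and 44527 CPM in the KO library.

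**Figure D5:**
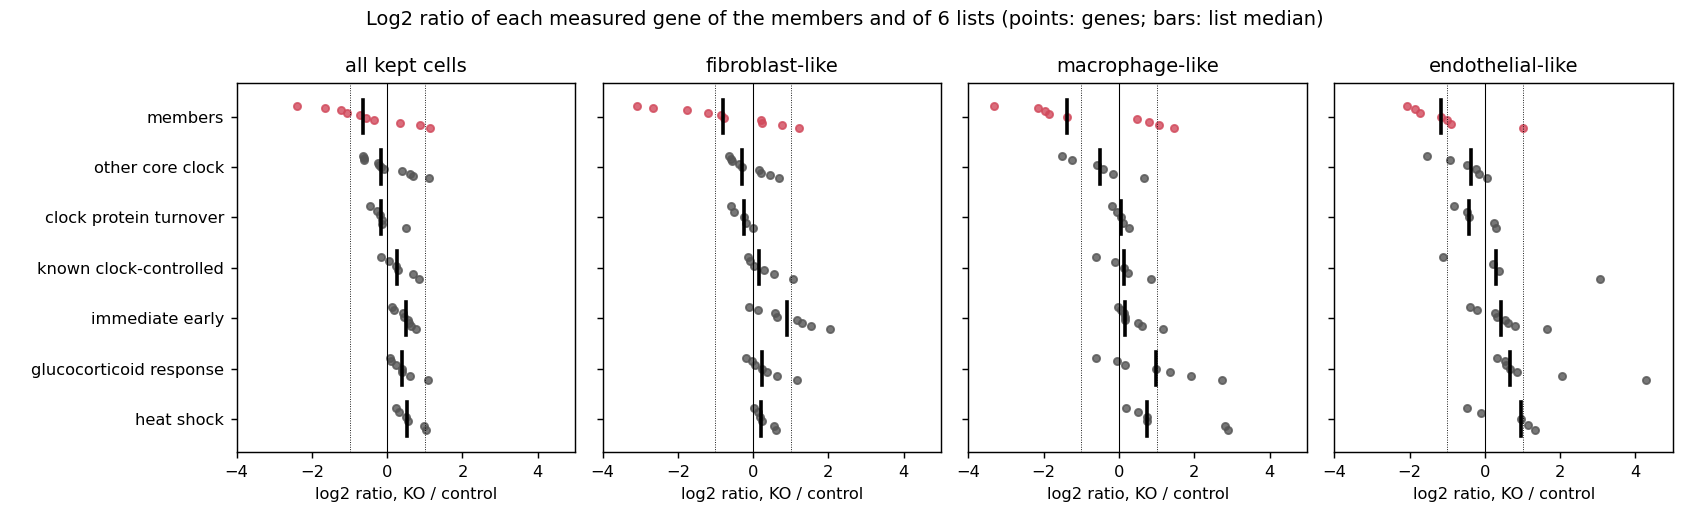
Log2 ratio of CPM, KO to control, of each measured gene among the members and 6 lists of clock and response genes, over all kept cells and in fibroblast-like, macrophage-like and endothelial-like cells. Points are genes, with counts under 3 set to 3, and bars are list medians. The members spread from -3.31 to 1.46 in macrophage-like cells, whereas the other core clock genes lay between -1.52 and 0.66 there.

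Of 3933 genes measured in all 10 classes, Tef and Per1 were the only members. Tef, with a median log2 ratio of -1.11 over the classes, was 13th from the lowest, and Per1, with 0.78, was 12th from the highest. The lowest medians belonged to Retnla, Dpt, Hba-a2, Hba-a1, Hbb-bs, Hbb-bt, Gm10073, Dcn, Rps12-ps3 and H2-Eb1, among them haemoglobin genes, the fibroblast markers Dpt and Dcn and the MHC class II gene H2-Eb1. Among the highest were Erdr1, Gm11808, Tomm6, Rpl15, Sik1, Cebpb, Gm2000, Dnaja1 and Rpl27-ps3. Sik1, a kinase gene induced by cyclic AMP, was at 32.6 CPM in the control and 63.9 CPM in the KO library over all kept cells, and Cebpb at 206 and 349 CPM.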

How the data were processed

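Single-cell RNA-seq was performed by the authors on gWAT SVF with droplet 3′ chemistry, and the deposited counts are UMI counts per gene and barcode, made with Cell Ranger 3.0.1 on mm10 per the labels. Replicates were not available, with 1 library per genotype. A barcode was kept if it had 500 or more detected genes and no more than 10% of its UMIs from mitochondrial genes. The highest Scrublet scores were removed as likely doublets, in proportion to the barcodes of the library. Cells were clustered with scanpy 1.11.5 and leidenalg 0.10.2 (2000 variable genes, 30 components, 20 neighbours, resolution 0.5), leaving 54 clock and response genes out of the clustering genes. A cluster was named where its mean marker z-score was above 0.5 and 0.75 above the next class, with at least 3 markers and 50% of the list each found in 10% of its cells, the 50% rule being set after seeing the data. Names were rebuilt here and may differ from the study's. UMIs were summed per class and library. Exact intervals (95%) were computed with scipy 1.17.1 and scripts were tested on simulated data. TMM factors came from edgeR 4.0.16. The genes named were the 10 members, the listed genes, and the 10 lowest and 10 highest median ratios among genes measured in every class, of which some are not reported here. The members, lists and markers were chosen with earlier results of these data known.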

Additional observations from a re-analysis of the deposited data

Results flagged for a closer look

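Hlf was singled out because its log2 ratio of KO to control had opposite signs in different classes, with counting intervals on opposite sides of 0. It was 1.104 (0.43 to 1.75) in mesothelial-like cells and -0.86 in fibroblast-like, -2.34 in T cell-like, -2.03 in pericyte and smooth muscle-like and -1.85 in endothelial-like cells. The difference between classes was not tested, since there was 1 library per genotype. The 30 mesothelial-like KO UMIs came from 10 of 20 cells, with at most 6 in a cell, and the ratio was 0.58 with each cell weighted equally. With control cells clustered alone the T cell-like ratio was -0.35. The T cell-like and the pericyte and smooth muscle-like values each rested on 4 KO UMIs.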

How the results depend on the processing

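The 13 alternatives gave 893 member values, of which 852 stayed within the counting interval of the reported value, and 425 of 463 calls were kept. Some of these outcomes were fixed in advance and say nothing on stability. UMI minimums of 10 and 50 change which genes count as measured, but no ratio. Settings that change only the clustering use the same cells, so values over all kept cells could not move under them. Thinning each cell to 2000 UMIs left 2 of 7 measured members at least 2-fold lower in macrophage-like cells, against 5 of 9. The calls lost there were those of Dbp (46 control and 0 KO UMIs), Tef (40 and 0) and Per3 (25 and 1), with the KO counts set to 3. In the other 8 classes together 19 of 49 values were lower, and this became 5 of 13 under a stricter cell filter (1000 or more genes, mitochondrial share up to 5%), 4 of 17 after thinning and 12 of 29 with at least 50 UMIs per gene, where fewer genes or cells remained. Per3 in T cell-like cells reversed to 0.39 with control cells clustered alone, and the cause was not tested. Hlf (0.25) and Per3 (0.0437) in pericyte and smooth muscle-like cells reversed after thinning, where 0 KO UMIs remained and were set to 3. In fibroblast-like cells Nr1d1 (-4.16 to -2.97), Nr1d2 (-1.95 to -1.05), Dbp (-3.91 to -2.37) and Nfil3 (1.06 to 1.82) stayed past 2-fold under all 13 alternatives. Over all kept cells Per3 was lost under 3 of them, with -0.75 as the highest value, and Nr1d2 after thinning (-0.93), whereas Nr1d1 and Dbp were kept under all 13. Macrophage-like cells had too few KO cells at resolution 1.0 (19) and under the stricter cell filter (16), which also gave no value for T cell-like, pericyte and smooth muscle-like, B cell-like, monocyte-like and mesothelial-like cells. Monocyte-like cells were not found with the looser cell filter or without doublet removal. No paired analysis was possible because there was 1 library per genotype. In the immune classes other than macrophage-like and T cell-like cells, 6 of 10 members or fewer were measured. Dendritic cell-like cells were among these classes although their medians were 12439 control and 17190 KO UMIs per cell.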
